A study of Caenorhabditis elegans with 2 samples.

Results

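The genes described here are the protein-coding genes of Caenorhabditis elegans whose names begin with vps- (vacuolar protein sorting), vha- (vacuolar H+-ATPase), snx- (sorting nexin) or rab- (Rab GTPase), without rab-3. They number 77 of 19973 annotated protein-coding genes, with 31 vps, 20 vha, 7 snx and 19 rab genes. They were chosen by name while the promoter peaks of these data were already known, so every count, signal and rank of a peak below is a description and carries no test. The binding of TBX-2, a T-box transcription factor, was mapped by chromatin immunoprecipitation and sequencing (ChIP-seq) in whole hermaphrodites of strain OP159. The strain's genotype is unc-119(ed3) III with the integrated transgene wgIs159, which adds a TBX-2 copy tagged with GFP and FLAG at its C-terminus, and precipitation used an antibody against GFP. Animals were L1 larvae taken 6 h after their synchronization by bleaching and starvation, in 2 biological replicates that form 1 group, so there was no second condition. Whole animals were used, so the share of cells with the protein at a site and its occupancy in each cell cannot be told apart.

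Cells sort proteins between the Golgi, endosomes, lysosomes and the plasma membrane with these gene families. Rab GTPases mark each membrane and recruit tethers, and ESCRT complexes sort cargo into multivesicular bodies. Retromer and sorting nexins retrieve receptors, and HOPS and CORVET tether membranes before fusion. The V-ATPase is a rotary proton pump that acidifies these compartments, built from a cytosolic V1 sector that hydrolyses ATP and a membrane V0 sector that passes protons. TBX-2 itself is known for its role in pharyngeal muscle.

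A peak was counted for a gene when its summit lay from 1000 bp upstream to 200 bp downstream of one of the gene's transcript starts. The peaks were those of a list made from both replicates with a threshold on the irreproducible discovery rate (IDR), which held 4384 peaks on the ce11 assembly. Peak signal is the strength the authors' caller gave, on a scale that is not stated. It ran from 76.8 to 1894 in the IDR list, with a median of 145. Each replicate list and the pooled list held 30000 regions, peaks and background together, and as these lists hold no read counts the depth is unknown.

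A few summits carry the results that follow, so their sequences are shown first, each from 50 bases before to 50 bases after the summit, plus strand, ce11 (WBcel235, RefSeq genome). Capitals mark GAGAGA (or its complement TCTCTC) and GCGCGC where these were found. The first 4 are the strongest summits of each family, and the next 4 are vha summits shown for the GAGAGA words in them. The last 3 are vps and snx summits that hold GCGCGC. They lie at chrII:6589021-6589121, chrX:4190723-4190823, chrIV:17087569-17087669, chrII:11967665-11967765, chrIV:6790579-6790679, chrII:10303882-10303982, chrX:2237574-2237674, chrIV:3368812-3368912, chrV:8606433-8606533, chrIII:8700716-8700816 and chrX:1128633-1128733, in the order printed.
vps-32.1: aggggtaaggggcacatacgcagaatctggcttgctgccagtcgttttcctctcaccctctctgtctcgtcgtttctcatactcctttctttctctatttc
vha-12: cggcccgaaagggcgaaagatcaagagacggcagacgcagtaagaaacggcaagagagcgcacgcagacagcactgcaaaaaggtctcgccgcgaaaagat
snx-13: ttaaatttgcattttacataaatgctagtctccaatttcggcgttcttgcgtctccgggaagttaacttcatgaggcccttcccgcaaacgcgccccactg
rab-7: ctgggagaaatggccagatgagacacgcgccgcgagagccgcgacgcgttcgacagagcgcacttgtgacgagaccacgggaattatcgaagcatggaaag
vha-8: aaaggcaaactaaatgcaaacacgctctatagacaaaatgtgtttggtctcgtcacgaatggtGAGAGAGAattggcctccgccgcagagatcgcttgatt
vha-9: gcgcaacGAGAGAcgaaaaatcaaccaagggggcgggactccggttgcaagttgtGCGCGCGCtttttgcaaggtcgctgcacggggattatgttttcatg
vha-15: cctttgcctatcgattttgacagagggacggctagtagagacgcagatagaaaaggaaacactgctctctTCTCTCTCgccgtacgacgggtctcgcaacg
vha-19: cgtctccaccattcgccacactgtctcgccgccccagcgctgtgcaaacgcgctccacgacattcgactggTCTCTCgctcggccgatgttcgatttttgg
vps-60: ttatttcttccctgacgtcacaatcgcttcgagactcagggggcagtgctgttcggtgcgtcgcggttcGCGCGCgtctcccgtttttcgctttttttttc
vps-33.1: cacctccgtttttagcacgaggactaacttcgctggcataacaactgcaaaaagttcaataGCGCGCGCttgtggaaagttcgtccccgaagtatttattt
snx-1: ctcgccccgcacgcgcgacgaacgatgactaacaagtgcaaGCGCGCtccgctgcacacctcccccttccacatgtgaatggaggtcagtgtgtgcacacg

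None of the T-box letters GGTGTGA lay within 50 bp of the 36 member summits, on either strand. A count of 0 of 36 allows a share of up to 8.33%, taken as 3 divided by 36. This is an approximate 1-sided 95% limit, unlike the exact intervals further on. Of all 2487 promoter summits of the IDR list, 1.09% held GGTGTGA. The shorter word GTGTGA, which lies inside GGTGTGA, was at 2 of 36 summits, those of rab-5 and vps-25, against 7.24% of all promoter summits. The E-box CACGTG and TCACGTGA, which contains it, were at 0 of 36 (4.95% and 0.684% of promoter summits), while TGATAA, the word known for GATA-type factors, was at 1, that of vps-2 (4.7%). GAGAGA lay at 9 of 36 summits (25%), close to the 24.9% of all promoter summits. By family the count was 6 of 10 vha summits, 2 of 17 vps, 1 of 6 rab and 0 of 3 snx summits. Within 25 bp of the summit GAGAGA was at 4 of 36 (11.1%) and at 2 of 10 vha summits (20%), against 13.6% of promoter summits. GCGCGC lay at 6 of 36 (16.7%) against 9.57%. These were 4 of 17 vps, 1 of 10 vha, 1 of 3 snx and 0 of 6 rab summits. These are counts of letters in a window and say nothing of which factor binds there.

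Of the 77 genes, 34 had a promoter peak (44.2%), where 15.6% of all protein-coding genes had one. Shares in the families were 50% for vha (10 of 20, 95% exact interval 27.2 to 72.8), 48.4% for vps (15 of 31, 30.2 to 66.9), 42.9% for snx (3 of 7, 9.9 to 81.6) and 31.6% for rab (6 of 19, 12.6 to 56.6). These are Clopper-Pearson intervals that show how few genes a share rests on. Since the families were chosen with their peaks known, neither these nor the intervals further on test a share against that of all genes or of another group. Among the strongest 2192 peaks of the IDR list, 24 members had a promoter peak (31.2%), against 9.49% of all genes. The median signal of the strongest promoter peak was 255 over the 34 genes, against 176 over all 3114 genes with a peak. By family it was 298 for rab, 255 for vha, 178 for vps and 149 for snx.

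**Figure D1:**
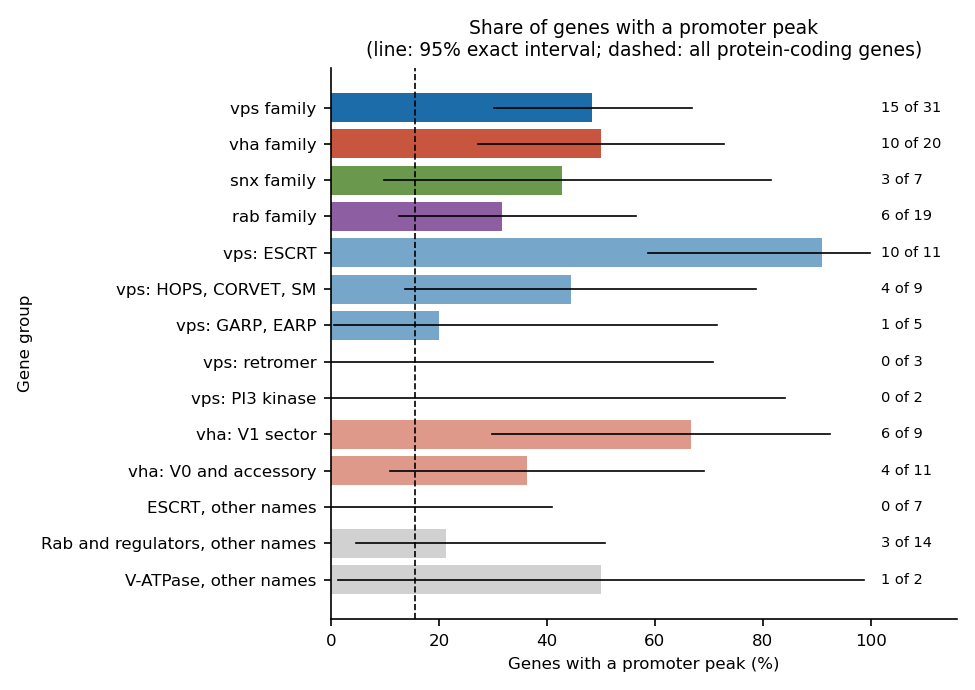
Percentage of genes with a promoter peak (x axis) in each family, in the functional groups inside the vps and vha families and in related genes with other names (y axis); bars give the share, black lines the 95% exact interval, the dashed line the 15.6% of all protein-coding genes, and the numbers on the right the counts. The ESCRT bar of the vps family reaches 90.9%, while the small retromer (0 of 3) and PI3 kinase (0 of 2) groups are at 0.

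Peaks were unevenly spread over the complexes of the vps family. ESCRT subunits with a vps name had a promoter peak in 10 of 11 genes (90.9%, interval 58.7 to 99.8). Outside ESCRT, 5 of 20 vps genes had one (25%, interval 8.66 to 49.1). Retromer had 0 of 3 (vps-26, vps-29 and vps-35, interval up to 70.8). The phosphatidylinositol 3-kinase vps-34 and its partner vps-15 had 0 of 2 (interval up to 84.2). The GARP and EARP tethers had 1 of 5 (interval 0.505 to 71.6). Beside the 15.6% of all protein-coding genes, counts from so few genes do not show a lack of peaks. HOPS and CORVET subunits with the Sec1/Munc18-type genes had 4 of 9. The lipid transfer gene vps-13 had none. Group membership came from a list written with earlier results known.

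The strongest member was vps-32.1, which encodes an ESCRT-III filament subunit (WBGene00016961, chrII:6589708-6591084, plus strand). Its peak (chrII:6588910-6589262) had a signal of 694 in the IDR list, 237 in replicate 1 and 452 in replicate 2. The summit lay 637 bp upstream of its start and 416 bp from that of icd-1, a gene of the nascent polypeptide-associated complex on the other strand. Another ESCRT-III gene, vps-60, had a signal of 563 (212 and 349 in replicates 1 and 2), 355 bp upstream and in no other promoter. For vps-4, the AAA ATPase that takes ESCRT-III apart, the signal was 547 (248 and 297), and the summit lay 262 bp upstream. All of these ranked 336 or better in each replicate.

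Both ESCRT-II genes with a peak were strong. At vps-22 the signal was 515 (213 and 300), but the summit lay 616 bp from its start and 65 bp from that of C27F2.9. At vps-25 the signal was 453 (181 and 273), in an intron of that gene, 21 bp upstream of one of its starts. A weaker vps-25 peak (150) lay upstream of another of its starts, in the promoter of uba-2, which encodes a subunit of the SUMO-activating enzyme. The third ESCRT-II gene, vps-36, was the ESCRT member without a promoter peak, and the nearest IDR summit lay 1075 bp upstream of its start (signal 290).

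The remaining ESCRT genes were weaker. The ESCRT-I gene vps-37 had a signal of 258 (109 and 148), and vps-28, also of ESCRT-I, had 117 (54.6 and 59.5). The ESCRT-III genes vps-2, vps-24 and vps-20 had 163, 137 and 125. Their summits lay 247 bp upstream of vps-2, in the promoter it shares with tiar-2, and 5 bp downstream of a start for vps-24 and vps-20, within their 5′ UTRs. The vps-24 summit also lay in the promoters of eif-1 and pigb-1, and the vps-20 summit in that of eif-4A3.

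Among the other vps genes, vps-51 of the GARP and EARP tethers had the strongest peak, with a signal of 526 (202 and 322). Its summit lay 207 bp upstream of its start, in the promoter it shares with lin-35, the Retinoblastoma gene of the worm. The Sec1/Munc18-type genes vps-33.2, vps-33.1 and vps-45 had signals of 178, 154 and 130, and the HOPS gene vps-39 had 2 peaks of 115 and 113. The stronger vps-39 summit had no match in replicate 1. A replicate 1 region with a signal of 51.9 overlapped that peak, with its summit beyond the 100 bp allowed for a match.

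ESCRT genes are also known under other names. The ESCRT-0 genes hgrs-1 and stam-1, the ESCRT-I genes tsg-101 and mvb-12, the ESCRT-III gene did-2 and the associated alx-1 and istr-1 had a promoter peak in 0 of 7 (interval up to 41). Together with the vps-named subunits the count was 10 of 18 (55.6%, interval 30.8 to 78.5), against the 15.6% of all genes. The strongest pooled region in the did-2 promoter ranked 5401, outside the IDR list, and hgrs-1, tsg-101 and alx-1 had no pooled region at all.

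**Figure D2:**
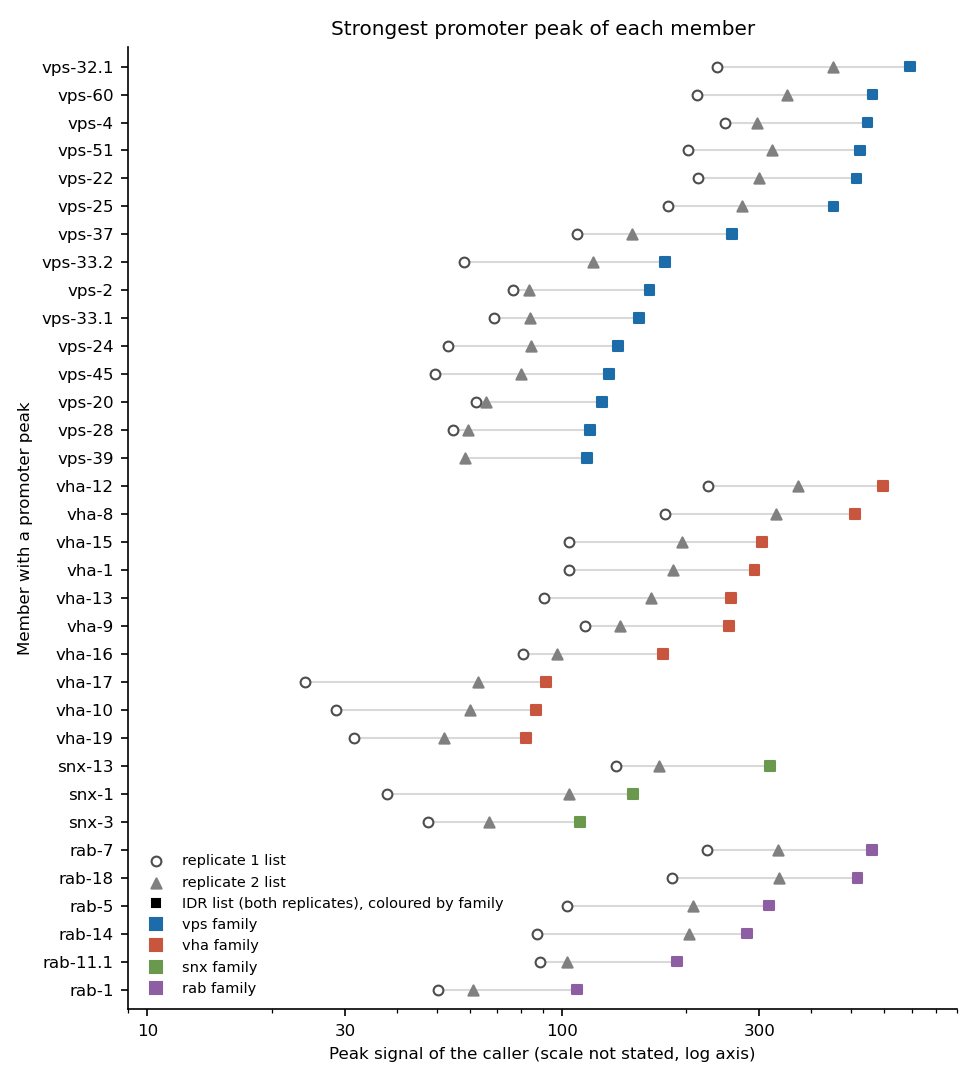
Signal of the strongest promoter peak (x axis, log scale, caller's units) for each of the 34 members with a peak (y axis, grouped by family): open circles are replicate 1, grey triangles replicate 2 and squares the IDR list. Values run from 82 at vha-19 to 694 at vps-32.1 in the IDR list, and the replicate 2 value exceeds that of replicate 1 for every member matched in both.

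V-ATPase genes were bound in both sectors. Of the 9 vha genes of the V1 sector 6 had a promoter peak (66.7%, interval 29.9 to 92.5), and of the 11 of the V0 sector and its accessory proteins 4 had one (36.4%, interval 10.9 to 69.2). Median signals were 280 and 134. The strongest was vha-12, which encodes the B subunit (WBGene00006921, chrX:4191094-4193144, plus strand), with a signal of 596 in the IDR list, 225 in replicate 1 and 373 in replicate 2. Its summit lay 321 bp upstream of the start, in no other promoter.

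The other V1 subunits followed in order of signal. At vha-8 (E subunit) it was 510 (178 and 330), with the summit 445 bp upstream of the vha-8 start but 141 bp from that of C17H12.2. At vha-15 (H subunit) it was 305 (104 and 195). Values at vha-13 (A subunit, 256), whose summit lay in the 3′ UTR of the upstream gene cept-2, and vha-9 (F subunit, 253) were close to each other. The stalk gene vha-10 (G subunit) was far lower, at 86.7 (28.6 and 60.2), in an intron of trpp-8. Without a promoter peak were vha-14, vha-11 and vha-18.

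In V0, the proteolipid ring gene vha-1 led with a signal of 292 (104 and 186), in the promoter it shares with sqv-3. It was followed by vha-16 (d subunit) at 176 (80.7 and 97.4). Lower down came vha-17 (e subunit) at 91.5 (24 and 62.9) and vha-19, the gene of an accessory subunit, at 82 (31.5 and 52.1). The other proteolipid genes vha-2, vha-3 and vha-4, the a subunit genes vha-5, vha-6 and vha-7, and the accessory gene vha-20 had none. Of the V-ATPase genes with other names, unc-32 (a subunit, 96.3) had a promoter peak and spe-5 (B subunit) had none, so that 11 of 22 V-ATPase genes had one. Among the 4 a subunit genes unc-32 was thus the one with a peak.

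A summit in a promoter need not belong to that gene alone. For 7 of the 10 vha genes with a peak the strongest summit lay in no other protein-coding promoter. The same held for 8 of 15 vps genes, 1 of 3 snx genes and 0 of 6 rab genes. Over all 77 members this was 16 genes (20.8%), against 7.89% of all genes. Among genes with a peak, the summit was shared for 18 of 34 members (52.9%) and for 49.4% of all 3114 genes.

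Every rab peak lay in a promoter shared with another gene, and most lay far upstream. The strongest, at rab-7, the late endosome Rab (WBGene00004271, chrII:11965523-11966931, minus strand), had a signal of 561 (224 and 333). It lay 784 bp upstream of the rab-7 start and 171 bp from that of W03C9.5, and the promoter of mex-1 held it too. At rab-5, the early endosome Rab, the signal was 317 (103 and 207), 723 bp upstream. The rab-11.1 summit (190), at the gene of the recycling endosome Rab, lay 680 bp upstream, nearer to the ribosomal protein gene rpl-7 (301 bp). The rab-1 summit (109), at the gene of a Rab of the early secretory pathway, lay 547 bp upstream, nearer to C39F7.5. By contrast the rab-18 summit (518; 185 and 335) lay 23 bp downstream of its start, in its 5′ UTR. At rab-14 the signal was 280 (87.4 and 203), 421 bp upstream, in the promoter shared with nipi-3.

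The families also varied in the distance of the summit to the start. The median summit lay 614 bp upstream for rab, 358 bp for vha, 303 bp for snx and 176 bp for vps, against 240 bp over all genes with a peak. The member's own start was the nearest for 25 of 34 strongest summits (73.5%), and for 74.3% of all genes with a peak. Counted over all annotated genes, 25 of 77 members (32.5%) had such a peak, against 11.6%. It was the nearest for 12 of 15 vps, 8 of 10 vha, 2 of 3 snx and 3 of 6 rab genes. With a promoter of 500 bp upstream to 100 bp downstream, 2 of 19 rab genes kept a peak (rab-14 and rab-18), 13 vps, 9 vha and 3 snx. As shares these were 10.5% of rab genes and 35.1% of all 77 members, against 12.4% of all protein-coding genes. With this window the rab share, which rests on 2 genes, was near that of all genes.

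**Figure D3:**
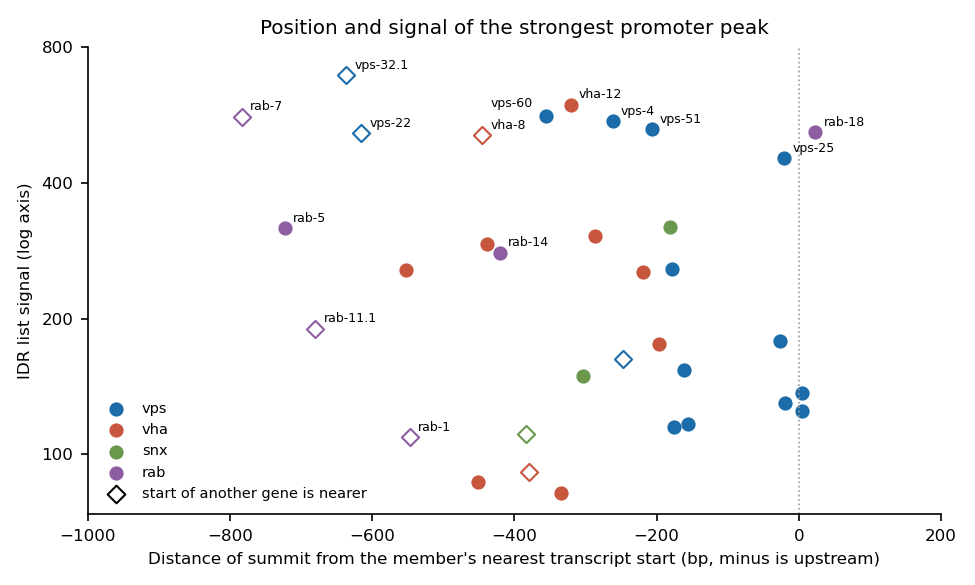
Signal in the IDR list (y axis, log scale) against the distance of the summit from the member's nearest transcript start (x axis, bp, minus is upstream), 1 point for each of 34 members; open diamonds mark summits that lie nearer to the start of another gene. Rab points sit between 421 and 784 bp upstream except rab-18.

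Of the sorting nexins, snx-13, a gene of the RGS-domain type, was the strongest (WBGene00013803, chrIV:17078820-17087438, minus strand). Its signal was 319 (135 and 172), 181 bp upstream, in the promoter shared with snr-1, which encodes a spliceosomal Sm protein. At snx-1, a retromer-associated nexin, the signal was 149 (37.8 and 104), 303 bp upstream and in no other promoter. At snx-3, which recycles the Wnt carrier in the worm, it was 111 (47.7 and 66.7), in the promoter shared with rad-54.L. No promoter peak was found for snx-6, snx-14, snx-17 or snx-27. An IDR summit lay inside snx-17, 962 bp downstream of a start (signal 182), which the promoter window does not reach.

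Rab genes with other names and Rab regulators had a promoter peak in 3 of 14 (21.4%, interval 4.66 to 50.8), near the 15.6% of all genes. These were unc-108, the worm RAB-2 gene (signal 465, 151 and 315 in the replicates), and the Rab GAP subunit genes rbg-1 (174) and rbg-2 (167). Other endosomal genes had 4 of 16 with a peak (25%, interval 7.27 to 52.4), which included the 7 ESCRT genes above. They were ccz-1, a subunit of the exchange factor for RAB-7 (432), lmp-1 (165), the recycling gene rme-1 (91.7) and the lysosomal channel gene cup-5 (88.7).

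Members without an IDR promoter peak fell into a pair of kinds. Of these 43 genes, 23 had a weaker region of the pooled list in the promoter, and 20 had no pooled region there. The share with no region was 10 of 16 among vps genes, 3 of 10 among vha, 1 of 4 among snx and 6 of 13 among rab. The like share over all genes without a promoter peak is not given here, so these counts describe the members only. The rab genes without an IDR promoter peak were rab-6.1, rab-6.2, rab-8, rab-10, rab-11.2, rab-19, rab-21, rab-28, rab-30, rab-33, rab-35, rab-37 and rab-39. Those of the tethers were vps-8, vps-11, vps-16, vps-18 and vps-41 in HOPS and CORVET and vps-50, vps-52, vps-53 and vps-54 in GARP and EARP. Just outside the IDR threshold were vps-50 (pooled signal 70.2, rank 4801), vps-35 (67.1, rank 5005), rab-39 (66.9, rank 5019) and snx-17 (65.3, rank 5151). Just inside were vha-19 (82, rank 4113) and vha-10 (86.7, rank 3879). Every peak of the IDR list had a signal of at least 76.8.

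Beyond the edge of the promoter window, IDR summits lay 1047 bp upstream of vha-3, 1221 bp upstream of rab-10 and 1299 bp upstream of vps-16. Of the 43 genes, 10 had an IDR summit within 2000 bp of a start. The median distance to the nearest IDR summit was 5338 bp. Like values for all genes without a promoter peak are not given here, so nothing particular to the members can be read from these.

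**Figure D4:**
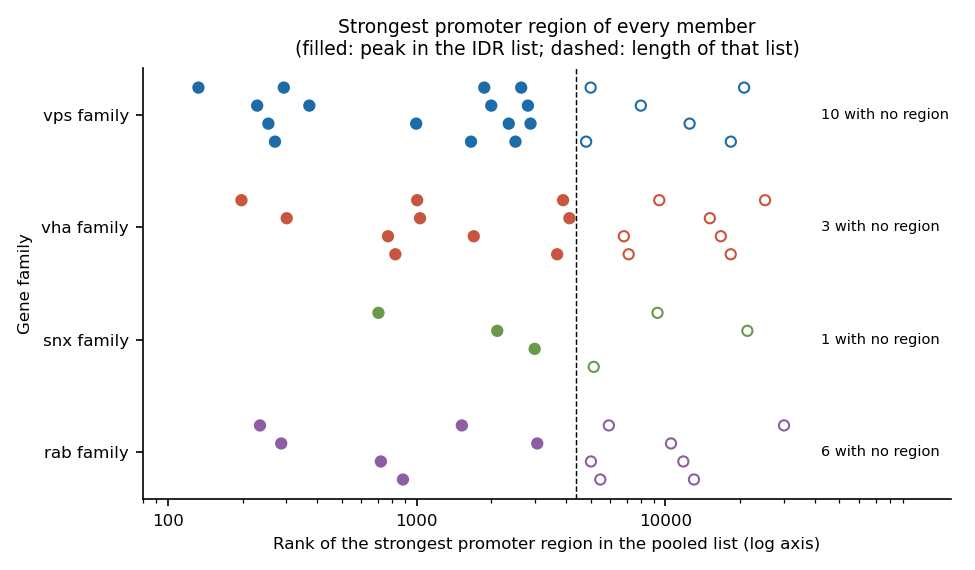
Rank of the strongest promoter region in the pooled list of 30000 (x axis, log scale, 1 is strongest) for every member, by family (y axis); filled points have a peak in the IDR list, open points do not, and the dashed line marks the 4384 peaks of that list. Members with no pooled region in the promoter are counted on the right, 10 of them in the vps family.

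Promoters in the compact worm genome are often shared or short. Neighbours were classed after the data had been seen, by whether the next protein-coding gene upstream lay within 1000 bp, or overlapped, and by its strand. With a close neighbour on the same strand, 8 of 29 members had a peak (27.6%), against 10.3% of all such genes. With a close or overlapping neighbour on the opposite strand, 15 of 23 had one (65.2%, all genes 31.2%). Such a neighbour need not share the promoter, as the vps-33.2 summit lay in an intron of epg-5 and in no other promoter. With none so close, 11 of 25 had one (44%, all genes 12.1%). In the vps family the 3 counts were 3 of 14, 7 of 10 and 5 of 7. The vps genes with no pooled region included vps-8, vps-11, vps-16, vps-29, vps-34, vps-41 and vps-53, which start between 88 and 115 bp behind a neighbour on their own strand. The others, vps-13, vps-15 and vps-18, had an upstream neighbour farther off or on the opposite strand. At a like spacing, vps-54 (90 bp) and rab-33 (107 bp) had a pooled region and vha-10 (103 bp) an IDR peak. The part of this spacing in the counts was not tested.

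The replicates ranked the member peaks alike. Among the 4384 strongest regions of each, 31 of 34 strongest summits were found in both, 14 of 15 for vps, 8 of 10 for vha, 3 of 3 for snx and 6 of 6 for rab. As a share of all members this was 40.3%, against 13.4% of all genes. The exceptions were vps-39, vha-10 (rank 4779 in replicate 1 and 3524 in replicate 2) and vha-17 (5848 and 3368). Across the 33 summits matched in both replicates, signals had a Spearman's rho of 0.909, as a description across peaks that share their libraries. Over the strongest promoter peaks of all 3061 protein-coding genes so matched it was 0.910, the like value for other genes, and over all 4260 matched IDR peaks 0.844.

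Replicate 2 gave the higher signal at all 33, by a factor of 1.06 at vps-20 to 2.75 at snx-1, with a median of 1.6. The median over all matched IDR peaks was 1.61, close to that of the members. By rank, which is free of that scale, 17 of the 33 stood higher in replicate 2. Among the strongest promoter peaks of all 3061 genes matched in both, 1484 did, a like share. The 17 were 8 of 10 vha, 5 of 14 vps, 3 of 6 rab and 1 of 3 snx. Both replicates went into the IDR list, so their likeness is no independent evidence for the peaks.

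**Figure D5:**
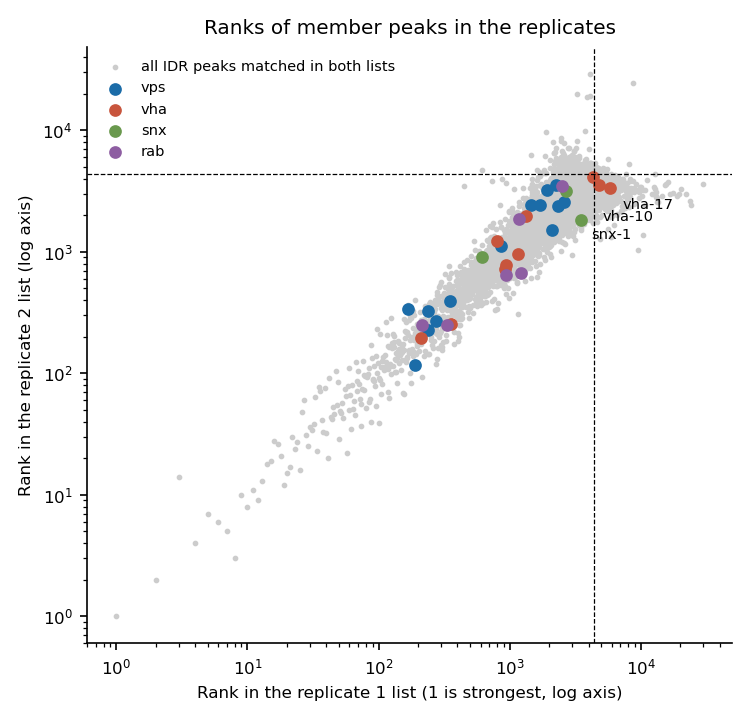
Rank in the replicate 1 list (x axis) against rank in the replicate 2 list (y axis), both on log scales with 1 the strongest, for the 33 member summits matched in both (coloured by family) and for all 4260 IDR peaks matched in both (grey); dashed lines mark rank 4384. Of the member points, vha-10 and vha-17 lie beyond the line of replicate 1.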

How the data were processed

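Peak lists were used as deposited. Per the notes deposited with the samples, the replicate and pooled lists were derived from alignments on ce11 and the IDR list from those 3 lists. The aligner, caller, IDR threshold and control strain were not stated in the labels or notes. Peak signal as the authors deposited it (narrowPeak column 7) was used to rank and describe regions. The deposited −log10 q-value was 4.01 for every IDR peak and ranked none. The lists on ce10 were not used.

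Summits (column 2 plus column 10, counted from 1) were assigned to protein-coding transcript starts from the Ensembl 115 annotation (WBcel235, the assembly that ce11 names). A summit in several promoters counted for each. IDR summits were matched to the nearest replicate summit within 100 bp. Sequences came from the RefSeq genome of that assembly, with 7 motifs searched on both strands within 50 bp of summits. Python 3.11.15, pandas 2.3.3 and scipy 1.17.1 were used, and the assignment was tested on simulated summits. Replicate regions of equal summit and signal numbered 0, so the replicates were distinct.

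Members and gene lists were chosen with earlier results of these data known. The genes named with values are, in each family, up to 8 with the strongest promoter peak, plus all members without one by name or count, and bound genes of the related lists; others were named after their values were seen. Of 83 listed names, vps-32.2 was not found in the annotation. Alternatives were each replicate's list alone, the strongest 2192 IDR peaks, the strongest pooled regions, other promoter windows, assignment to the nearest start, unshared summits, other matching rules and other motif windows.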

Additional observations from a re-analysis of the deposited data

How the results depend on the processing

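Counts of members with a promoter peak moved by no more than 1.5 times in every family with either replicate alone. The same held with the strongest 2192 IDR peaks and with the wider promoter. The strongest 4384 pooled regions gave the same 34 members. Each of these members had the same rank in the pooled list as in the IDR list, so that setting is no separate check. Use of replicate 1 alone lost vha-10 and gained snx-17. When only summits in no other protein-coding promoter counted, 16 members had a peak (20.8%, all genes 7.98%). These were 8 vps, 7 vha, 1 snx and 0 rab genes. With that setting 14 members had a peak among the strongest regions of both replicates. The like share over all genes is not given here, so that count describes the members only. The rab count of 6 fell to 2 with the promoter of 500 bp upstream to 100 bp downstream and to 3 with the nearest start within 2000 bp. These are 10.5% and 15.8% of rab genes, against 12.4% and 14.6% of all genes. The rab share was thus near that of all genes with either setting. The cause was not tested. The median signal of 255 was 311 among the strongest 2192 IDR peaks, 178 with the narrower promoter and 216 with unshared summits. It was 89.7 to 143 in the lists of single replicates, whose signals are on a lower scale. Over all genes with a peak the median was 176 at the main setting. Like medians at the other settings are not given here, so whether the members stood higher there is not known. With motif windows of 100 bp on each side, member summits with GCGCGC numbered 10 in place of 6 (27.8%, promoter summits 13.2%), those with TGATAA 2 in place of 1 and those with CACGTG 1 in place of 0. GAGAGA was at 11 (30.6%, promoter summits 37.8%), and within 25 bp at 4. Depth behind the peaks is unknown. No paired analysis was possible because both samples belong to 1 group.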

Other observations

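Base composition at the summits differed between the families in median, with 56.4% G and C within 50 bases of the summit for rab (6 summits), 54% for vha (10), 47.5% for snx (3) and 45.5% for vps (17). Over all IDR promoter summits the median was 46.5%. The lowest member value was 30.7%, at vps-2. Peaks at 9 of the 36 member summits had a width of exactly 400 bp, and 29 of the 36 summits lay in intergenic sequence. Like counts over all promoter summits are not given here, so nothing particular to the members can be read from these. None of the strongest member summits lay near (200 bp) an annotated small structural RNA gene (tRNA, snRNA, snoRNA). Among all 3114 genes with a peak 92 had such a summit, so few that 0 of 34 members shows no contrast.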
